A study of Mus musculus with 6 samples.

Results

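Voltage-gated calcium channels were examined at the level of their subunit genes in cardiomyocytes (CMs) in 3 CtrlCre and 3 Cpt1bcKO samples. The genes are the 9 rows of the deposited table whose symbol is *Cacna1c*, *Cacna1d*, *Cacna1s*, *Cacna1g*, *Cacna1h*, *Cacna2d1*, *Cacna2d2*, *Cacnb2* or *Cacnb3*, out of 16448 genes. Cpt1bcKO mice carried the αMHC-Cre transgene and floxed alleles of *Cpt1b*, the mitochondrial carnitine palmitoyltransferase of heart and skeletal muscle, which lets long-chain fatty acids enter mitochondria for oxidation. CtrlCre mice carried the same transgene with wild-type *Cpt1b*. All animals were C57BL/6 mice aged 8 to 12 weeks. The αMHC promoter drives Cre in CMs from embryonic stages, so the deletion preceded adulthood, and other cells of the preparation kept the gene. CMs were isolated by enzymatic perfusion of the heart with the atria removed, total RNA was sequenced, and reads were counted per gene.

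A high-voltage-activated calcium channel is built around a pore-forming α1 subunit, which senses the membrane potential and conducts calcium. A cytoplasmic β subunit and an extracellular α2δ subunit join the pore, raise the number of channels at the surface and tune their gating. In ventricular CMs the main pore is Cav1.2, encoded by *Cacna1c*, and the calcium that enters through it opens ryanodine receptors of the sarcoplasmic reticulum and starts contraction. T-type channels open at lower voltages, form without an obligatory β or α2δ subunit, and are known from fetal ventricle and from the pacemaker and conduction system. Among the genes examined, 3 encode L-type pores, 2 encode T-type pores, 2 encode α2δ and 2 encode β subunits.

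Values are normalized read counts, which are reads per gene divided by a factor for each sample. Differences are log2 fold changes of Cpt1bcKO over CtrlCre on the log2(value + 1) scale with limma, fitted to the 11364 genes reaching a value of 10 in 3 or more samples, with *P* values adjusted over these genes. The targeted gene *Cpt1b* had 1861, 893 and 1443 normalized counts in CtrlCre samples 1, 2 and 3 and 211, 353 and 285 in Cpt1bcKO samples 1, 2 and 3. Sums of all values lay between 13393411 and 31722217 per sample, of which the mitochondrial rRNA gene *mt-Rnr2* took 61.8 to 80.8%, with the highest share in Cpt1bcKO 3. Both samples numbered 1 stood apart from the others in *Xist*, with 957 and 1080 normalized counts against 23 to 78.

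The abundant auxiliary subunits were lower in Cpt1bcKO CMs, whereas the abundant pore subunit was not detectably different. *Cacna2d1*, the main α2δ subunit of the heart, was 1.91-fold lower and *Cacnb2*, the main cardiac β subunit, was 1.70-fold lower, and both passed an adjusted *P* value of 0.05. *Cacna1c* overlapped between the groups. Of the 9 genes, 7 passed the filter on low values, and 2 of these were called at an adjusted *P* value below 0.05, beside 1.57% of all genes tested in either direction and 0.906% in the lower direction, which both took. At an unadjusted *P* value below 0.05, 4 of the 7 were lower, beside 7.22% lower among all genes tested, and none was higher. When samples were scaled without mitochondrial and rRNA genes, 3 of the 7 were lower by that measure, beside 4.45% of all genes tested. The median log2 fold change of the 7 genes was −0.77, against −0.0013 over all genes tested.

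**Figure D1:**
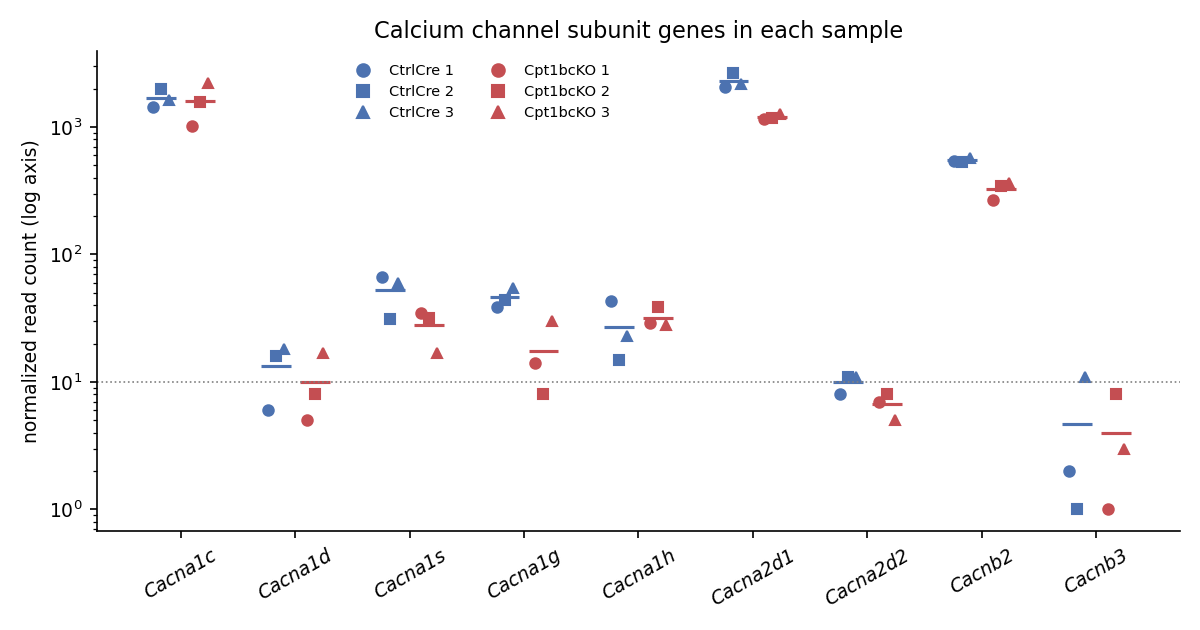
Normalized read count of each subunit gene (y axis, log scale) in each sample, with CtrlCre in blue and Cpt1bcKO in red, a marker shape for each replicate number, bars for group means and a dotted line at a value of 10. The 3 Cpt1bcKO values of *Cacna2d1* lie between 1160 and 1262, below the lowest CtrlCre value of 2047, while those of *Cacna1c* spread from 1013 to 2214 around the CtrlCre values.

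The regions before the start sites of *Cacna2d1* and *Cacnb2*, the genes that were called, are shown with that of a CpG-rich start of *Cacna1c*, the abundant gene that was not. They hold 250 bases before and 50 from a start site annotated by RefSeq (GRCm38.p6), given 5′ to 3′ on the strand of the gene. Capitals mark matches to 7 motifs searched on both strands, namely the GC box (GGGCGG), the CCAAT box, the TATA box (TATAAA), the GATA motif (AGATAA), the E-box (CANNTG), the MEF2 motif and the CArG box. Overlapping matches run together. *Cacna2d1* has a single annotated start, which is also the start of the gene in the deposited table (chr5:15934441-15934740, plus strand). *Cacnb2* has 2, of which the first is the deposited gene start (chr2:14604056-14604355, plus strand) and the other lies within the gene (chr2:14823842-14824141, plus strand). *Cacna1c* has 3, and the one shown also lies within the deposited gene (chr6:119108446-119108745, minus strand).
Cacna2d1: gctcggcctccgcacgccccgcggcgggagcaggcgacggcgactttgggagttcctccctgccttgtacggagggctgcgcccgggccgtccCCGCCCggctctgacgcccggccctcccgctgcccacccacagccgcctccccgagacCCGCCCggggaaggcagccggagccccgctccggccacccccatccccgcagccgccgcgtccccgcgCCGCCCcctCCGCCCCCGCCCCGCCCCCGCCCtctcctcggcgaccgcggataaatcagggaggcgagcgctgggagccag
Cacnb2, first start: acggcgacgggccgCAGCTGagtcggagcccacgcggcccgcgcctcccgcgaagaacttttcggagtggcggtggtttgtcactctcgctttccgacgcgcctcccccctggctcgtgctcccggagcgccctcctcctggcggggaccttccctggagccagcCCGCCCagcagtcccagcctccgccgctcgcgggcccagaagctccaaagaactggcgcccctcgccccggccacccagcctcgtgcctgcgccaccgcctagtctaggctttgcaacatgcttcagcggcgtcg
Cacnb2, inner start: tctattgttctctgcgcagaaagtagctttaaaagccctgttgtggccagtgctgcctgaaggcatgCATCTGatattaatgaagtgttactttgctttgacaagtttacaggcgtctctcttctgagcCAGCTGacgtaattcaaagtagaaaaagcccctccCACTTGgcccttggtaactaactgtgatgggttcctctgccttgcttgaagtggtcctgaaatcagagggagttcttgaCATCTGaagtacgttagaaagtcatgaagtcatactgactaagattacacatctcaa
Cacna1c, CpG-rich start: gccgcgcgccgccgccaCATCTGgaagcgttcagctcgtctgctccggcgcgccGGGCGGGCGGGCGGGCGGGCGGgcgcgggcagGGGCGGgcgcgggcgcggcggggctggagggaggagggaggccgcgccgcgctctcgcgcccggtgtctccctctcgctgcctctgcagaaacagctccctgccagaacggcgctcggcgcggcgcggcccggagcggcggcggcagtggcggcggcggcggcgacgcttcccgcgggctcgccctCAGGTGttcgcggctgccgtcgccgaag

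The *Cacna2d1* window contains 7 GC boxes, all read on the opposite strand, with the last 5 crowded from position −31 up to the start site, and has a GC content of 80.0%. The first *Cacnb2* window holds 1 GC box and 1 E-box at a GC content of 71.7%. The inner *Cacnb2* window holds no GC box and 4 E-boxes at 44.0% GC. The *Cacna1c* window holds 6 GC boxes and 2 E-boxes at 81.3% GC. The other annotated starts of *Cacna1c*, not shown, each had 51.3% GC and no GC box. GC-rich starts thus occur in both genes that were lower and in the one that overlapped, although not at every start of *Cacnb2* or *Cacna1c*. Over all 32851 promoter windows of this length the median GC content was 52.7%, and 35.7% hold a GC box, 72.3% an E-box, 37.4% a CCAAT box, 13.6% a TATA box, 11.2% the GATA motif, 0.557% the MEF2 motif and 1.63% the CArG box. None of the 4 windows shown holds the letters of the last 5. Of the 9 genes, 7 had RefSeq promoter entries, and *Cacna1g* and *Cacna1h* are named only. Reads were counted per gene, so these values do not separate transcripts from different starts.

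*Cacna2d1* (ENSMUSG00000040118, plus strand of chromosome 5 from 15934691 to 16374511, GRCm38) encodes α2δ-1, which is cleaved into an extracellular α2 and a membrane-bound δ piece and is the binding site of gabapentin. It had 2047, 2668 and 2186 normalized counts in CtrlCre samples 1, 2 and 3 and 1160, 1171 and 1262 in Cpt1bcKO samples 1, 2 and 3. The groups did not overlap, and the Cpt1bcKO samples lay close together. The log2 fold change of −0.93 had a standard error of 0.144 and a 95% interval from −1.25 to −0.61 (adjusted *P* = 0.0111). The log2 fold change was −1.01 to −0.82 in the 6 fits that left out a sample, whose direction was fixed because the groups did not overlap. The adjusted *P* value was 0.0615 without CtrlCre 2, 0.0560 without CtrlCre 3 and 0.0859 without Cpt1bcKO 2. The other α2δ gene, *Cacna2d2* (plus strand of chromosome 9 from 107399612 to 107529343), had 8, 11 and 11 in the CtrlCre samples and 7, 8 and 5 in the Cpt1bcKO samples and was below the filter. *Cacna2d1* made up 99.6% ± 0.0591 (SD, n = 3) of the summed α2δ values in CtrlCre and 99.4% ± 0.147 (SD, n = 3) in Cpt1bcKO CMs, a difference of −0.12 percentage points (exact permutation test, two-sided, *P* = 0.30).

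*Cacnb2* (ENSMUSG00000057914, plus strand of chromosome 2 from 14604306 to 14987908) encodes the β2 subunit, which binds the intracellular linker of the pore and helps to bring the pore to the membrane. It had 545, 530 and 575 normalized counts in the CtrlCre samples and 268, 342 and 365 in the Cpt1bcKO samples. The CtrlCre samples were tight, and all 3 Cpt1bcKO samples were lower. The log2 fold change of −0.77 had a standard error of 0.158 and a 95% interval from −1.12 to −0.42 (adjusted *P* = 0.0430). This call was near the threshold: the estimates stayed between −0.86 and −0.64 when a sample was left out, and the adjusted *P* value was between 0.0488 (without Cpt1bcKO 3) and 0.170 (without CtrlCre 3), so only the fit without Cpt1bcKO 3 kept it. The adjusted *P* value was also 0.0734 when samples were scaled without mitochondrial and rRNA genes. Of 3 antisense genes that overlap exons of *Cacnb2*, *Gm10849* shares the most bases (618) and was not analysed here. The other two, *Gm10848* and *Gm13269*, share 111 and 239 bases and had at most 5 normalized counts each in any sample. Exons of *Cacna1s*, *Cacna1d*, *Cacna1h* and *Cacna2d2* also overlap opposite-strand genes, which were not analysed here, and the strand setting of the counting is not given in the sources used here.

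*Cacnb3* (plus strand of chromosome 15 from 98632220 to 98644530) encodes β3, a subunit known mainly from brain and smooth muscle. It had 2, 1 and 11 normalized counts in the CtrlCre samples and 1, 8 and 3 in the Cpt1bcKO samples and was below the filter. *Cacnb2* therefore held 99.2% ± 0.928 (SD, n = 3) of the summed β values in CtrlCre and 98.8% ± 1.0 (SD, n = 3) in Cpt1bcKO CMs (exact permutation test, two-sided, *P* = 0.50). Over the 3 subunit shares tested the adjusted *P* values were 0.45 for *Cacna2d1*, 0.50 for *Cacnb2* and 0.45 for *Cacna1c*, and 3 samples against 3 cannot go below 0.10 in this test.

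*Cacna1c* (ENSMUSG00000051331, minus strand of chromosome 6 from 118587240 to 119196418), the gene of the Cav1.2 pore, had 1439, 1995 and 1618 normalized counts in the CtrlCre samples. The Cpt1bcKO samples had 1013, 1555 and 2214, so that the lowest and the highest of the 6 values both belonged to this group. The log2 fold change was −0.14 with a 95% interval from −0.70 to 0.42 (adjusted *P* = 0.852). The interval stops short of the estimates of *Cacna2d1* and *Cacnb2* but overlaps both of their intervals and holds smaller shifts in either direction. With one prior variance for all genes its lower end was −0.87, past the *Cacnb2* estimate of −0.77. Without Cpt1bcKO 1 the *Cacna1c* estimate was 0.15, and without Cpt1bcKO 3 it was −0.41, so its sign rested on single samples.

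*Cacna1d* (minus strand of chromosome 14 from 30039941 to 30491156), the Cav1.3 pore of sinoatrial node and atrium, had 6, 16 and 18 normalized counts in the CtrlCre samples and 5, 8 and 17 in the Cpt1bcKO samples. Its log2 fold change was −0.41 with an interval from −1.68 to 0.87, and nothing could be resolved at this depth. *Cacna1s* (plus strand of chromosome 1 from 136052750 to 136119822), the Cav1.1 pore that acts as voltage sensor in skeletal muscle, had 66, 31 and 60 in the CtrlCre samples and 35, 32 and 17 in the Cpt1bcKO samples. This gave a log2 fold change of −0.87 with a standard error of 0.371 and an adjusted *P* value of 0.329, and CtrlCre 2 fell within the Cpt1bcKO range. Among 12 skeletal muscle markers only *Casq1* passed the filter, with 32, 31 and 52 in CtrlCre and 10, 16 and 35 in Cpt1bcKO samples, and the summed list lay between 41 and 74 in CtrlCre and between 26 and 73 in Cpt1bcKO samples. The defining fast-fibre myosins *Myh1*, *Myh2* and *Myh4* did not exceed 7 in any sample. The part of *Casq1*-expressing cells in the *Cacna1s* values was not tested.

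*Cacna1c* made up 92.2% ± 2.46 (SD, n = 3) of the summed values of the 5 pore genes in CtrlCre and 94.4% ± 1.81 (SD, n = 3) in Cpt1bcKO CMs, a difference of 2.22 percentage points (exact permutation test, two-sided, *P* = 0.30). After division by exon length the shares were 82.6% ± 5.51 and 87.2% ± 4.46 (SD, n = 3 each). Cav1.2 was thus the main pore transcript in every sample on both scales, with a lowest share of 78.3% per length in CtrlCre 1.

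Of the T-type pores, *Cacna1g* had the most negative log2 fold change among the subunit genes tested. *Cacna1g* (ENSMUSG00000020866, minus strand of chromosome 11 from 94408391 to 94474198), which encodes Cav3.1, had 39, 44 and 55 normalized counts in the CtrlCre samples and 14, 8 and 30 in the Cpt1bcKO samples. The groups did not overlap, and Cpt1bcKO 3 was the closest to the controls. The log2 fold change of −1.53 had a standard error of 0.429 and a 95% interval from −2.48 to −0.58, but the adjusted *P* value of 0.134 missed the threshold. In limma fits with the replicate block or with sample weights the adjusted *P* value was 0.0336 and 0.0176. Without Cpt1bcKO 3 the log2 fold change was −2.0 with an adjusted *P* value of 0.0313, and without Cpt1bcKO 2 it was −1.11 with 0.413. In the samples where it could be estimated, 1 read was worth between 0.682 (Cpt1bcKO 1) and 1.29 (Cpt1bcKO 3) normalized counts, so these are values of few reads.

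*Cacna1h* (minus strand of chromosome 17 from 25374285 to 25433783), the gene of Cav3.2, had 43, 15 and 23 normalized counts in the CtrlCre samples and 29, 39 and 28 in the Cpt1bcKO samples. Its log2 fold change was 0.35 with an interval from −0.50 to 1.20 (adjusted *P* = 0.738). Its size rested on single controls, since it was 0.74 without CtrlCre 1 and 0.0067 without CtrlCre 2. The Cpt1bcKO values lay inside the CtrlCre range, and the difference between the responses of *Cacna1g* and *Cacna1h* was not tested. Together, 3 of the 7 genes tested were lower without overlap between the groups, beside 9.60% with that pattern among all genes tested.

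Compared per kilobase of exon, counting all annotated exons of a gene, the genes fell into an abundant and a scarce class. *Cacna2d1* had 185 ± 26.2 normalized counts per kilobase in CtrlCre and 96.5 ± 4.51 in Cpt1bcKO CMs (SD, n = 3 each). *Cacna1c* had 79.5 ± 13.4 and 75.2 ± 28.4, and *Cacnb2* had 41.6 ± 1.73 and 24.6 ± 3.83. In CtrlCre these 3 genes kept that order without overlap of their samples. In Cpt1bcKO CMs *Cacna2d1* (93.4 to 102 per kilobase) lay within the range of *Cacna1c* (47.8 to 104), and only *Cacnb2* stayed below both in every sample.

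The scarce class began at *Cacna1s* with 7.99 ± 2.86 per kilobase in CtrlCre and 4.27 ± 1.47 in Cpt1bcKO CMs. *Cacna1g* followed with 4.54 ± 0.807 and 1.71 ± 1.12, and *Cacna1h* had 2.77 ± 1.48 and 3.28 ± 0.623. *Cacna2d2*, *Cacnb3* and *Cacna1d* had means between 1.06 and 1.26 in CtrlCre and between 0.792 and 0.998 in Cpt1bcKO CMs. Neighbours in this scarce order overlapped in their samples in both groups, except *Cacna1h* and *Cacna2d2*, which were apart in both.

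Ratios within a sample do not depend on how samples are scaled, and they were computed after the values above had been seen, so no test is given. There were 1.42, 1.34 and 1.35 normalized counts of *Cacna2d1* for each of *Cacna1c* in CtrlCre samples 1, 2 and 3 and 1.15, 0.753 and 0.570 in Cpt1bcKO samples 1, 2 and 3. The ratio was nearly the same in the controls, while the Cpt1bcKO samples were all lower and differed among themselves. The ratio of *Cacnb2* to *Cacna1c* was 0.379, 0.266 and 0.355 in the CtrlCre samples and 0.265, 0.220 and 0.165 in the Cpt1bcKO samples, so the nearest samples of the groups, CtrlCre 2 and Cpt1bcKO 1, almost met. The ratio of *Cacna2d1* to *Cacnb2* was 3.76, 5.03 and 3.80 in the CtrlCre samples and 4.33, 3.42 and 3.46 in the Cpt1bcKO samples, and here the groups overlapped. Cpt1bcKO 3, with the lowest ratios to *Cacna1c*, was also the sample with the highest *Cacna1c* value and the highest *mt-Rnr2* share, and the part of that share in the ratios was not tested.

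**Figure D2:**
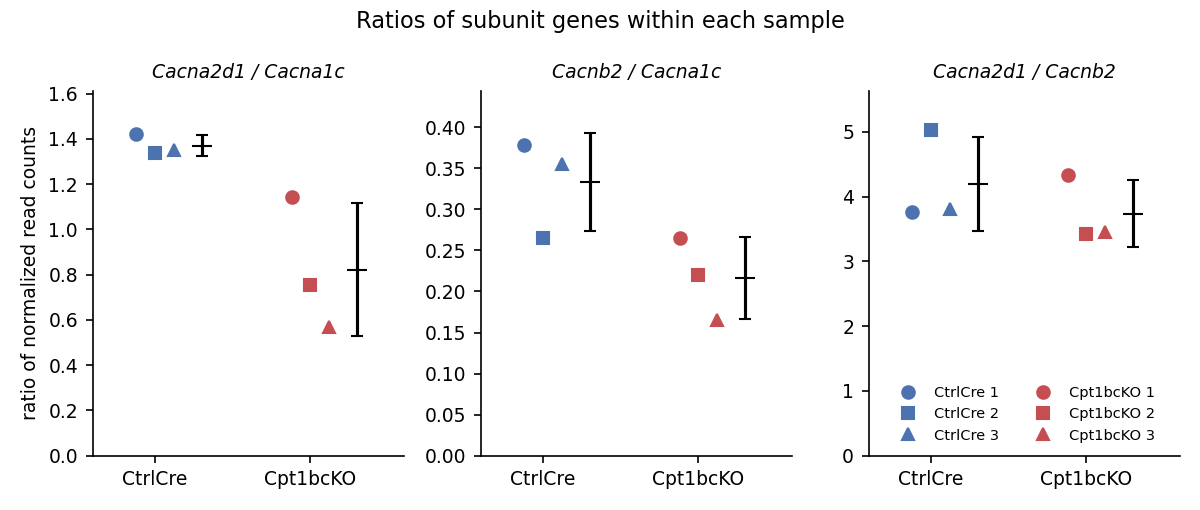
Ratios of normalized read counts of subunit genes within each sample (y axes, linear, from 0), with CtrlCre in blue, Cpt1bcKO in red and group means with SD (n = 3) in black. The ratio of *Cacna2d1* to *Cacna1c* lies between 1.34 and 1.42 in CtrlCre and between 0.570 and 1.15 in Cpt1bcKO samples, while that of *Cacna2d1* to *Cacnb2* overlaps.

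The levels of *Cacna1c* over the 6 samples were most like those of *Hivep2* (Pearson's r 0.993 on the log2 scale), *Marf1* (0.991) and *Tollip* (0.984) among 6794 tested genes with a mean of at least 50. *Hivep2* had 255, 337 and 294 normalized counts in the CtrlCre samples and 205, 288 and 382 in the Cpt1bcKO samples, the same order of samples as *Cacna1c* with its lowest value in Cpt1bcKO 1 and its highest in Cpt1bcKO 3. The genes most like *Cacna1g* were *Ak4*, a mitochondrial adenylate kinase (r 0.998), *Osbpl8* (0.989) and *Zhx1* (0.989). *Ak4* had 134, 139 and 156 in the CtrlCre samples and 80, 62 and 111 in the Cpt1bcKO samples. These are the highest of many correlations over 6 samples that share their libraries and scaling, and they are given as a description.

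Of 18 further calcium channel genes of the pore, β, α2δ and γ families, 7 had values in the table used here and 3 passed the filter. *Cacnb1*, the skeletal muscle β subunit, had 8 to 21 normalized counts over all samples, *Cachd1* had 12 to 27 and *Cacna1a* had 8 to 30. None of these 3 had an unadjusted *P* value below 0.05 with limma. *Cacnb4*, below the filter, had 5, 5 and 8 in the CtrlCre samples and 1, 2 and 0 in the Cpt1bcKO samples. Among all β genes tested or below the filter, none besides *Cacnb2* exceeded 21 normalized counts in any sample.

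Most genes that restrain, modify or anchor the channels did not pass the test after adjustment. Over these lists and the further channel genes, 54 genes in all, 32 were tested. Of these, 1 was called at an adjusted *P* value below 0.05 and was lower, beside 0.906% called lower among all genes tested. The number called was 5 with the replicate block, 2 with sample weights and 0 with one prior variance, beside 5.31%, 4.46% and 0.361% of all genes tested. At an unadjusted *P* value below 0.05, 11 were lower and 1 higher, beside 7.22% lower and 6.66% higher among all genes tested. The median log2 fold change of the 32 was −0.20. These counts depended on single samples and on the scaling of the samples. The lower genes numbered 4 of 32 without CtrlCre 1, and 3 of 31 when CtrlCre 3 or Cpt1bcKO 2 was left out, beside 4.88 to 5.44% of all genes tested. When mitochondrial and rRNA genes were left out of the scaling, which raised the median over all genes tested from −0.0013 to 0.11 and turned the genes called from 75 higher and 103 lower to 102 higher and 74 lower, 4 of the 32 were lower and 3 higher at an unadjusted *P* value below 0.05, beside 4.45% lower and 10.8% higher among all genes tested, and the median of the 32 was −0.087. *Rrad*, an RGK GTPase that binds β subunits and inhibits L-type current, had 848, 398 and 379 normalized counts in the CtrlCre samples and 315, 281 and 270 in the Cpt1bcKO samples. All CtrlCre values were higher, with CtrlCre 1 far above the rest, and the log2 fold change was −0.80 with a standard error of 0.272 and an adjusted *P* value of 0.209, and it was −0.43 without CtrlCre 1. *Gem*, the other RGK gene tested, had 12, 6 and 13 in the CtrlCre samples and 18, 23 and 16 in the Cpt1bcKO samples, with a log2 fold change of 0.87, a standard error of 0.421 and an adjusted *P* value of 0.395.

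Among 22 regulators and anchors, 18 were tested, and 6 were lower and 1 higher at an unadjusted *P* value below 0.05. Beside them, 7.22% were lower and 6.66% higher among all genes tested. None passed after adjustment, beside 1.57% called among all genes tested. With the replicate block 2 passed and with sample weights 1, beside 5.31% and 4.46% of all genes tested. The lower genes numbered 2 without CtrlCre 1 and 1 when CtrlCre 3 or Cpt1bcKO 2 was left out, beside 4.88 to 5.44% of all genes tested. With the scaling without mitochondrial and rRNA genes, 2 of the 18, *Ahnak* and *Camk2b*, were lower and 2 higher by the unadjusted measure. Among all genes tested 4.45% were lower and 10.8% higher with that scaling. *Ahnak*, a large scaffold that binds β subunits, had 6698, 7306 and 8697 normalized counts in the CtrlCre samples and 3743, 4571 and 6654 in the Cpt1bcKO samples (log2 fold change −0.63, adjusted *P* = 0.205). *Prkar1a*, a regulatory subunit of protein kinase A, had the opposite sign, with 3182, 2907 and 3394 in the CtrlCre samples and 4173, 4172 and 4290 in the Cpt1bcKO samples (log2 fold change 0.42, adjusted *P* = 0.182). The groups did not overlap for either gene. *Prkar2a*, the other type of regulatory subunit, had a value of −0.38 on that scale (adjusted *P* = 0.278). Of the CaMKII genes, whose kinase facilitates L-type current, *Camk2b*, *Camk2g* and *Camk2a* had values of −0.87, −0.37 and −0.42 without overlap between the groups (adjusted *P* = 0.223, 0.349 and 0.349), and *Camk2d*, the most abundant of them in these samples, had −0.12 with overlap.

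Of 10 genes of the dyad and the T-tubule, where L-type channels face ryanodine receptors, 9 were tested, and 1 was called, beside 1.57% called among all genes tested. The log2 fold changes of all 9 were negative, beside 50.2% of all genes tested, and 7 of the 9 were negative with the scaling without mitochondrial and rRNA genes, beside 38.3% of all genes tested, with *Jph2* and *Lrrc10* at 0.046 and 0.075. At an unadjusted *P* value below 0.05, 4 of the 9 were lower, beside 7.22% of all genes tested. With that scaling 1 was lower, beside 4.45% of all genes tested. When CtrlCre 1, CtrlCre 3 or Cpt1bcKO 2 was left out in turn, 1 was lower, beside 4.88 to 5.44% of all genes tested. *Tcap*, which links titin at the Z-disc with the T-tubule membrane, had 3073, 1777 and 2373 normalized counts in the CtrlCre samples and 520, 428 and 1307 in the Cpt1bcKO samples. It fell by 1.82 on the log2 scale with a standard error of 0.361 (adjusted *P* = 0.0354), and the adjusted *P* value stayed below 0.05 without Cpt1bcKO 1 or Cpt1bcKO 3 and was between 0.0739 and 0.184 without any of the other samples, 0.156 with one prior variance for all genes and 0.0980 without both samples numbered 1. *Trdn*, the ryanodine receptor anchor triadin, had a log2 fold change of −0.41 and *Ank2*, ankyrin-B, of −0.31, both without overlap and with adjusted *P* values of 0.268 and 0.349. *Ryr2*, the ryanodine receptor itself, had 28092, 42113 and 31743 in the CtrlCre samples and 18443, 26739 and 31524 in the Cpt1bcKO samples, with overlap.

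**Figure D3:**
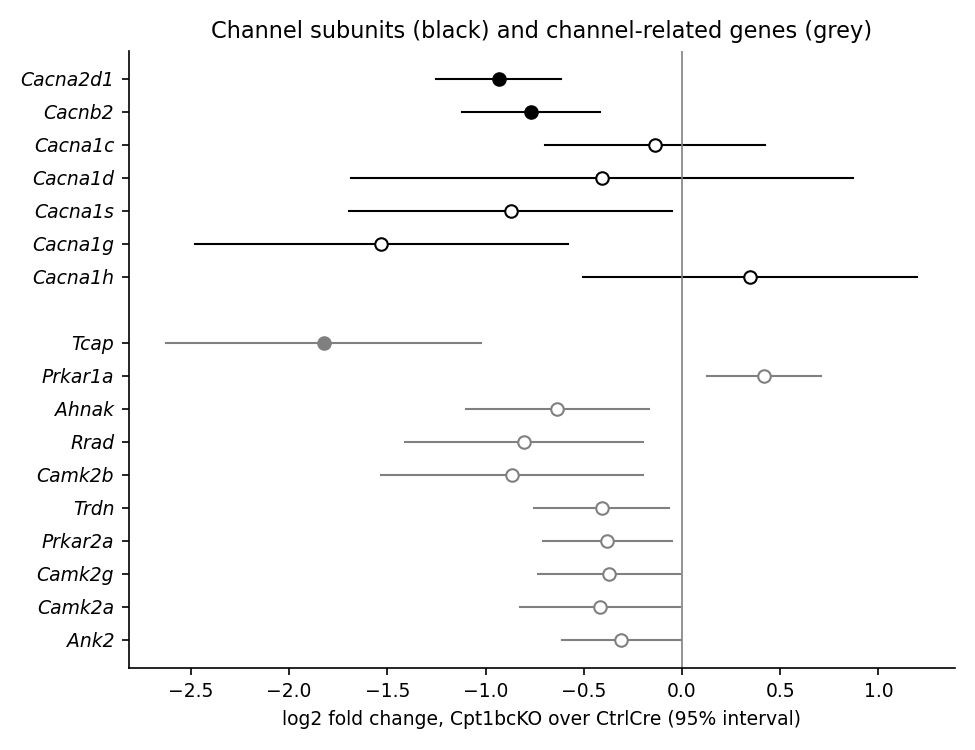
Log2 fold change of Cpt1bcKO over CtrlCre with its 95% interval (x axis) for the 7 subunit genes tested (black) and 10 channel-related genes (grey), with filled circles where the adjusted *P* value was below 0.05. *Cacna2d1* at −0.93, *Cacnb2* at −0.77 and *Tcap* at −1.82 are filled, and the intervals of *Cacna1c*, *Cacna1d* and *Cacna1h* include 0.

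In bulk samples, fewer cells of a type and less RNA per cell cannot be told apart, so markers of the cell types that the preparation could hold were read beside the channel genes. Ventricular CM markers were high in every sample but lower in every Cpt1bcKO sample, with summed values of 285573 to 356851 in CtrlCre and 224444 to 261298 in Cpt1bcKO samples. Of these 10 genes 9 had negative log2 fold changes, 2 at an unadjusted *P* value below 0.05, with a median of −0.31, beside 50.2% negative and 7.22% lower at that *P* value among all genes tested. These 2 were *Pln* (−0.85, adjusted *P* = 0.0678 by limma) and *Atp2a2* (−0.60, adjusted *P* = 0.209), and only *Mybpc3* was positive (0.33). The part of the lower ventricular CM markers in the channel values was not tested. Fibroblast markers were higher in Cpt1bcKO samples, with sums of 498 to 785 in CtrlCre and 1108 to 1338 in Cpt1bcKO samples, and 7 of 8 were tested, all 7 were higher at an unadjusted *P* value below 0.05, and 2 passed after adjustment, beside 6.66% and 0.660% higher among all genes tested. Their part in the lower *Cacna2d1* and *Cacnb2* values was not tested.

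Sums of pacemaker and conduction markers were 225 to 287 in CtrlCre and 139 to 154 in Cpt1bcKO samples, with 6 of 9 genes tested, 2 lower at an unadjusted *P* value below 0.05 with limma, beside 7.22% of all genes tested, and 0 after adjustment. By sign alone, 4 of the 6 log2 fold changes were negative and 2 were positive. *Hcn4*, a pacemaker channel, had 22, 24 and 21 in CtrlCre and 6, 1 and 18 in Cpt1bcKO samples, and *Irx3* had 136, 69 and 94 and then 57, 31 and 23, whereas *Tbx3* overlapped at 37 to 66 and 34 to 55. The separation of the sums rested on *Irx3*, since without it they were 89, 165 and 193 in CtrlCre and 97, 108 and 116 in Cpt1bcKO samples and overlapped. Within the Cpt1bcKO group, sample 3 had the highest *Cacna1g* value, the highest *Hcn4* value and the highest sum without *Irx3*. It shared the lowest full sum of 139 with sample 2. *Gja5*, the connexin 40 gene of the conduction system, had 1, 8 and 23 in CtrlCre and 10, 15 and 19 in Cpt1bcKO samples (log2 fold change 1.01), and *Tbx18* had 3, 15 and 39 and then 18, 13 and 16 (0.27), both with overlap. The part of such cells in the *Cacna1g* values was not tested. Endothelial marker sums were 1483 in CtrlCre 1 and 2807 to 3317 in the other samples. All 8 endothelial genes had positive log2 fold changes, beside 50.2% negative among all genes tested. This sign count rested on CtrlCre 1. Without CtrlCre 1, 5 were positive and 3 negative, and their median moved from 0.34 to 0.014. Without both samples numbered 1, 3 were positive and 5 negative. In the main fit 2 were higher at an unadjusted *P* value below 0.05 without overlap between the groups, beside 6.66% higher among all genes tested. These were *Flt1* (0.71, adjusted *P* = 0.228) and *Tie1* (0.61, adjusted *P* = 0.266), with 0 endothelial genes passing after adjustment in limma. Sums of smooth muscle markers (1371 to 2768 and 1667 to 2053), immune markers (96 to 144 and 114 to 134), atrial markers (3780 to 4665 and 4578 to 5956) and neuronal or glial markers (15 to 25 and 13 to 37) overlapped between CtrlCre and Cpt1bcKO samples. The overlap of the smooth muscle sums rested on CtrlCre 1 at 1371, since CtrlCre 2 and 3 had 2103 and 2768, above every Cpt1bcKO sum. The median log2 fold change of that list was 0.076, against −0.44 without CtrlCre 1 and −0.58 without both samples numbered 1. In the last fit 4 of 8 were lower at an unadjusted *P* value below 0.05 with limma, beside 9.51% of all genes tested. Within the smooth muscle list, *Acta2*, the smooth muscle actin, was lower in every Cpt1bcKO sample, with 526, 244 and 391 normalized counts in CtrlCre and 230, 134 and 132 in Cpt1bcKO samples. Its difference was −1.20 on the log2 scale, and the adjusted *P* value by limma was 0.0835, against 0.0234 with sample weights and 0.00247 with the replicate block. In the main fit *Acta2* was the only one of the 8 genes of that list tested with an unadjusted *P* value below 0.05, beside 7.22% lower among all genes tested. With sample weights and with the replicate block 2 of the 8 were lower by that measure, beside 11.4% and 11.3%. The part of *Acta2* in the channel values was not tested.

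**Figure D4:**
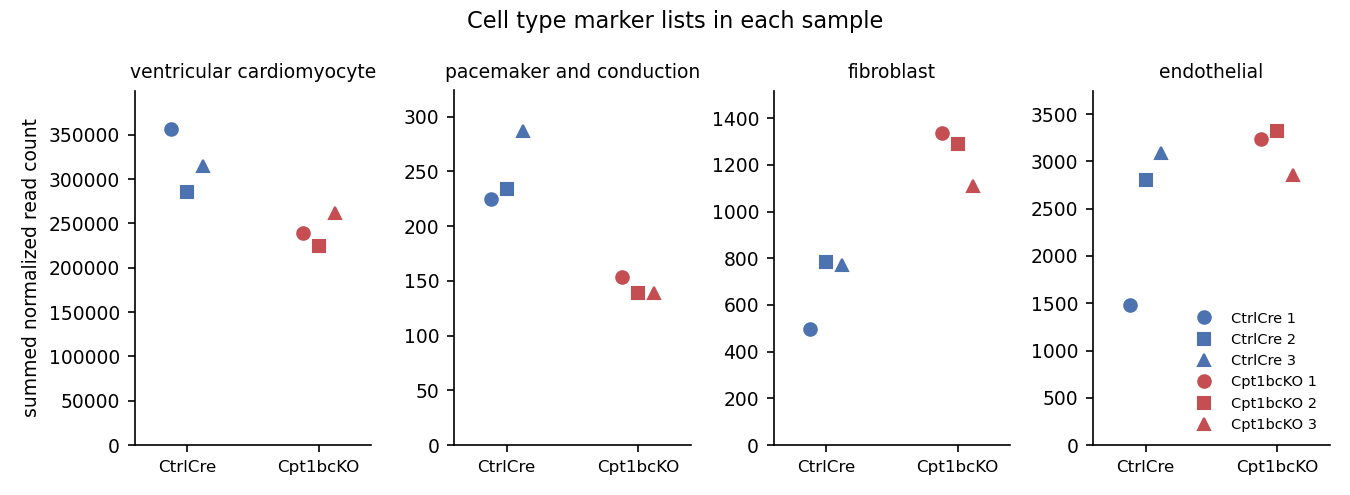
Summed normalized read counts of 4 marker lists (y axes, linear, from 0) in each CtrlCre (blue) and Cpt1bcKO (red) sample. The conduction list lies between 225 and 287 in CtrlCre and between 139 and 154 in Cpt1bcKO samples, and the fibroblast list is higher in every Cpt1bcKO sample.

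The samples numbered 1 were high in *Xist*. The groups did not overlap for either called subunit gene, so any CtrlCre and Cpt1bcKO sample, this pair included, had to differ in the same direction. Within this pair *Cacna2d1* was 2047 in CtrlCre 1 and 1160 in Cpt1bcKO 1, and *Cacnb2* was 545 and 268. With both left out, the log2 fold change of *Cacna2d1* was −0.99 (adjusted *P* = 0.00707), that of *Cacnb2* was −0.64 (adjusted *P* = 0.0526) and that of *Cacna1c* was 0.05. This fit of 2 samples against 2 was chosen after the data had been seen.

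**Figure D5:**
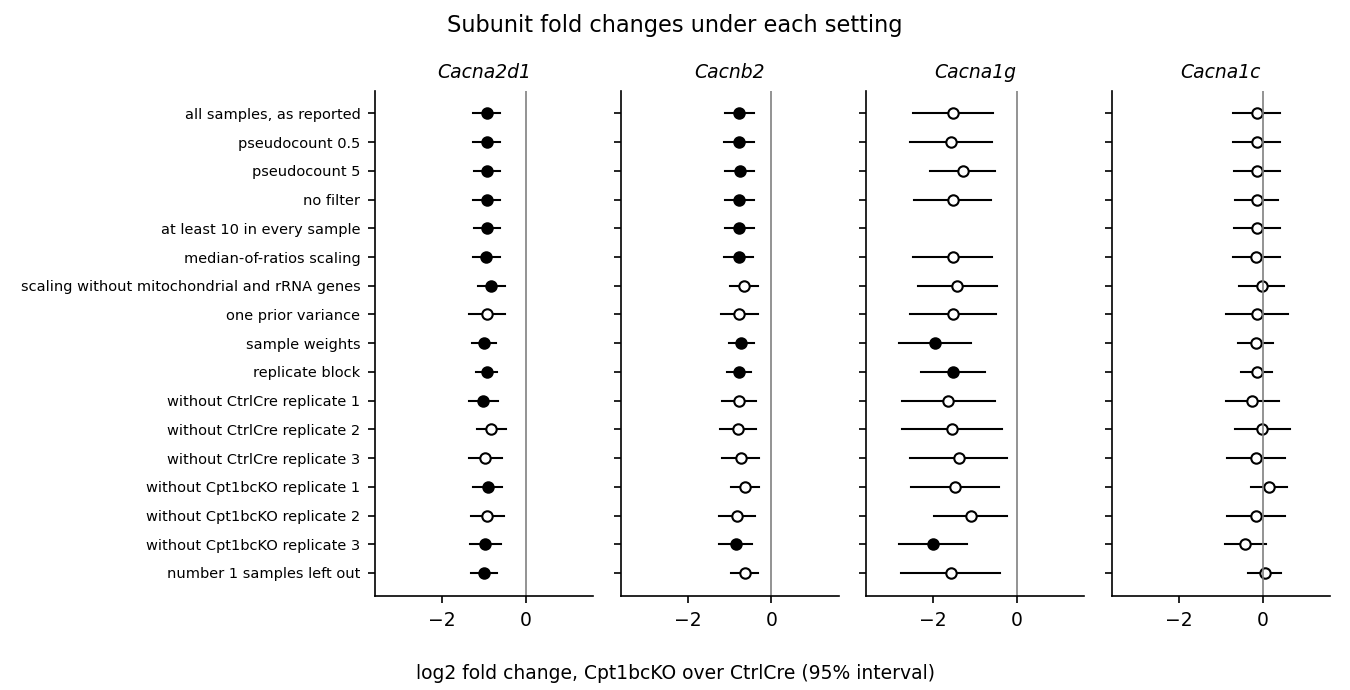
Log2 fold change of Cpt1bcKO over CtrlCre with its 95% interval (x axes) for *Cacna2d1*, *Cacnb2*, *Cacna1g* and *Cacna1c* under each setting of the analysis (rows), with filled circles where the adjusted *P* value was below 0.05 and no point where the gene was not tested. *Cacna2d1*, *Cacnb2* and *Cacna1g* stay below 0 under every setting, with adjusted *P* values on either side of 0.05. Their groups do not overlap, which fixes this sign under all settings but the changed scalings. *Cacna1c* crosses 0 to 0.15 without Cpt1bcKO 1.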

How the data were processed

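RNA-seq values of 3 CtrlCre and 3 Cpt1bcKO samples of ventricular CMs were used. Per the study's methods and the submitters' processing notes, the authors trimmed reads with Trimmomatic 0.36, aligned them to mm10 with STAR 2.5.4b, counted them per gene with featureCounts 1.6.0, leaving out reads on several genes or places, and normalized with DESeq2 1.14.1. The deposited signal values are these counts divided by a size factor for each sample and rounded by the authors, so they are not raw counts, and count tests were not used. Columns of the authors' own fold changes and P values were not used. The release of the annotation used in counting is not given in the sources used here.

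Values were compared as log2(value + 1) with lmFit and eBayes (trend) of limma 3.58.1 in R 4.3.3 for 11364 genes with at least 10 in at least 3 samples, with Benjamini-Hochberg adjustment over these genes. The steps were tested on simulated data. Subunit shares were compared with exact permutation tests in Python 3.11.15. Exon lengths came from GENCODE vM21 (GRCm38), matched by gene identifier. They count every base in any annotated exon of a gene and are not transcript lengths. For *Cacnb2*, *Cacna1d* and *Cacnb3* the gene start and end in vM21 did not both match the deposited ones. All subunit genes were described, and of the channel-related lists those named had an adjusted P value below 0.05, or an unadjusted one below 0.05 and no overlap, while *Gem*, *Camk2d*, *Ryr2*, *Cav3*, *Jph2*, *Lrrc10*, *Cacnb1*, *Cachd1*, *Cacna1a*, *Cacnb4*, *Gm10848*, *Gm10849*, *Gm13269* and marker genes were named after their values were seen. The subunit genes, lists and tests were chosen with earlier results of these data known. One gene of the conduction marker list is not reported here and was left out of its sums and counts. The study describes its replicates as separate mice, and the labels do not name the animal behind each sample. Alternatives were other pseudocounts, filters, scalings and variance models, sample weights, a replicate block and leaving out each sample. The worth of 1 read was estimated from gaps or doubled frequencies among low values and resolved in 4 of the 6 samples, and rounding kept whole reads from being recovered.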

Additional observations from a re-analysis of the deposited data

How the results depend on the processing

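The log2 fold changes of *Cacna2d1*, *Cacnb2* and *Cacna1g* were negative under every alternative that tested them. Since the groups did not overlap for these genes, only a changed scaling could have altered that direction. The number of subunit genes called at an adjusted P value below 0.05 was 2, beside 1.57% of all genes tested. It was 1 when samples were scaled without mitochondrial and rRNA genes (1.565% of all genes tested) and 1 without both samples numbered 1 (2.27%). With one prior variance for all genes (limma) it was 0, beside 0.361%. In that fit 3 subunit genes were lower at an unadjusted P value below 0.05, beside 6.06% of all genes tested. When each sample was left out in turn, 0 to 3 were called, beside 0.363 to 2.74% of all genes tested. The number of genes called among all tested was 178, against 41 with one prior variance, 507 with sample weights, 603 with the replicate block and 40 to 305 when a sample was left out. Scaling without mitochondrial and rRNA genes moved the median of all genes to 0.11. The median log2 fold change of the subunit genes was −0.53 without the filter, where 9 genes entered, and −0.81 to −0.64 when a sample was left out. *Cacna1c* was reversed to 0.046 without both samples numbered 1 and ranged from −0.41 to 0.15 when a sample was left out.

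With the replicate block, *Cacna1g* had an adjusted P value of 0.0336 at the same log2 fold change of −1.53. In that fit 3 subunit genes were called, beside 5.31% of all genes tested. The numbers were not taken as pairs in the main fit, and the labels do not state which samples belong together. The correlations of same-numbered samples' deviations were 0.376, 0.255 and 0.0684. Those of differently numbered samples ranged from −0.329 to 0.147. CtrlCre 3 correlated better with Cpt1bcKO 2 (0.119) than with Cpt1bcKO 3, whereas both samples numbered 1 share high *Xist* values. The study used littermates as controls, and whether same-numbered samples were littermates is not given, so pairing was not settled. Of the related genes, *Ahnak* (0.0123), *Rrad* (0.0325), *Prkar1a* (0.0415) and *Cav3* (0.0465) had adjusted P values below 0.05 only with the block, except that *Ahnak* also did with sample weights (0.0412). Among muscle and conduction markers, *Pln* (0.00224), *Irx3* (0.00779) and *Atp2a2* (0.0419) were also called with the block. *Cacna1g* also had an adjusted P value of 0.0176 with sample weights and was not tested where every sample needed at least 10. The adjusted P value of *Cacna2d1* was 0.102 and that of *Cacnb2* 0.158 with one prior variance. The difference in the *Cacnb2* share of β values was −0.35 percentage points and ranged from −0.88 to 0.22 when a sample was left out, that of *Cacna1c* from 1.30 to 3.61, and that of *Cacna2d1* from −0.21 to −0.06. Log2 ratios to *Cacna1c* differed by −1.06 to −0.56 for *Cacna2d1* and by −0.79 to −0.45 for *Cacnb2*. The causes of these shifts were not tested. Low depth limits *Cacna1d*, *Cacna2d2* and *Cacnb3*.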
